A study of Mus musculus with 10 samples.

Results

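The genes described are subunits of the L-type calcium channel and pacemaker channel genes of the heart: Cacna1c, Cacnb2, Cacna2d1, Hcn2 and Hcn4. They were found by taking each probe set whose single gene symbol in the platform annotation was one of these 5 names. That gave 4 genes and 5 probe sets out of 12394 genes and 22690 probe sets in all. Hcn4, the main pacemaker channel of the sinus node, matched none and was not analysed here, and no sodium channel gene was among the names. Cacna2d1 was read by 2 probe sets, and Cacna1c, Cacnb2 and Hcn2 by 1 each. All 5 probe sets were bright enough to test (mean log2 signal not under the 40th percentile of the array), and none was at or below the signal floor of 104 in any mouse.

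Right ventricles of 10 mice, all of strain 129SV, were profiled on Affymetrix arrays, each mouse on its own array. The trained groups were wildtype and plakoglobin (+/-), with 4 mice in each, and 1 untrained mouse of either genotype was measured beside them. Plakoglobin (+/-) mice carry 1 working copy of the gene for plakoglobin (Jup), a junction protein of heart muscle cells, and the labels do not say how the other copy was disrupted. Trained mice were 6 months old, 2 males and 2 females per genotype, and swam in water of 35 °C 6 times per week, for 5 min at first and 90 min at the end. The untrained pair, both female, were 10 months old, so training and age cannot be told apart.

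The L-type calcium channel opens when the muscle cell depolarises and lets in the calcium that triggers contraction. Cacna1c encodes its pore, Cacnb2 a subunit on the inner side that brings the pore to the membrane and tunes its gating, and Cacna2d1 an outer subunit that raises the current and is the target of gabapentin. Hcn2 encodes a channel that opens on hyperpolarisation and is gated by cyclic AMP. Such channels carry the pacemaker current, which is strong in the sinus node and weak in working ventricle.

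The bases just before the annotated transcription starts of Cacna2d1, Cacnb2 and Hcn2 are shown as a description of these genes. Whether they bear on any signal was not tested. They are the 100 bases before each start in RefSeq's table for mouse build GRCm38.p6, and all 5 names had an entry there, with 8 starts in all. Capitals mark GC boxes, the letters GGGCGG on either strand, to which factors of the Sp family bind. Cacna1c and Hcn4, not printed, had no such box in the 100 bases before their starts.
Cacna2d1, chr5:15934591-15934690, + strand: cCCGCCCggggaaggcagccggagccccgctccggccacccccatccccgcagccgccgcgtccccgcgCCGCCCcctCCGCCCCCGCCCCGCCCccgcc
Cacnb2, first start, chr2:14604206-14604305, + strand: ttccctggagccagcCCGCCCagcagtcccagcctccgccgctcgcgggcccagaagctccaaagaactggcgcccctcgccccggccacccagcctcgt
Cacnb2, second start, chr2:14823992-14824091, + strand: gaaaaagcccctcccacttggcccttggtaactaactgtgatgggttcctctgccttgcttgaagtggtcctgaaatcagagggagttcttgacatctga
Hcn2, chr10:79716534-79716633, + strand: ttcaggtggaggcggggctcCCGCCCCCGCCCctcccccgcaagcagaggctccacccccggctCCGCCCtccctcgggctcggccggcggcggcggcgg

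Over the table's windows of 300 bases, 250 before to 50 after a start, GC boxes numbered 7 for Cacna2d1, 3 for Hcn2, and 1 and 0 for the starts of Cacnb2. Of all 32851 windows 35.7% held at least 1. The GC content was 80% for Cacna2d1, 72.3% for Hcn2, and 71.7% and 44% for the starts of Cacnb2, against a median of 52.7% over all windows. Cacna1c has 3 starts in the table, with 0, 6 and 0 GC boxes and a GC content of 51.3%, 81.3% and 51.3%. The window of Hcn4 held 2 GC boxes and had a GC content of 71.7%. The TATA box letters TATAAA, found in 13.6% of all windows, were absent from all 8 member windows on both strands. So were the E box CACGTG (7.15% of windows), the cyclic AMP response element TGACGTCA (1.79%) and the GATA site AGATAA (11.2%). The probe sets do not tell which start a transcript came from.

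Array quality differed between mice and bears on these genes. GAPDH is read by control probe sets at both ends of its transcript, and the signal at the 3' end over that at the 5' end (the GAPDH ratio) rises when RNA is broken or incompletely copied. It reached 17.8 in a female, trained wildtype replicate 2. A pair of males also had raised ratios, 2.98 (trained plakoglobin (+/-) replicate 1) and 2.5 (trained wildtype replicate 1), while the other 7 arrays lay between 0.849 and 1.02. The same ratio for beta-actin was 2.65 and 3.05 in these males. It was 1.29 in trained wildtype replicate 2, beside 0.932 to 1.24 on the other 7 arrays. The 3 arrays are thus grouped by GAPDH alone, and beta-actin set apart only the males. Member differences are therefore given with and without these 3 arrays. Jup RNA did not separate the genotypes mouse by mouse, with signals of 1992 to 3520 in trained plakoglobin (+/-) and 2928 to 4322 in trained wildtype mice, so genotypes are given as labelled. Ventricular markers were bright on every array, with Myl2 at 222537 to 406537. Atrial markers were mixed: Myl7, at 40 to 729, was at or below the floor in 3 mice and Sln, at 68.5 to 700, in 1. Myl4, at 1448 to 3234, and Bmp10, at 588 to 1870, were above it in all. Of the conduction system markers, Gja5, at 27.5 to 80.5, was at or below it in all 10 mice, and Shox2 and Tbx18 in 5 each. Isl1 (126 to 598), Tbx3 (348 to 1170) and Cntn2 (118 to 945) were above it in all.

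**Figure D1:**
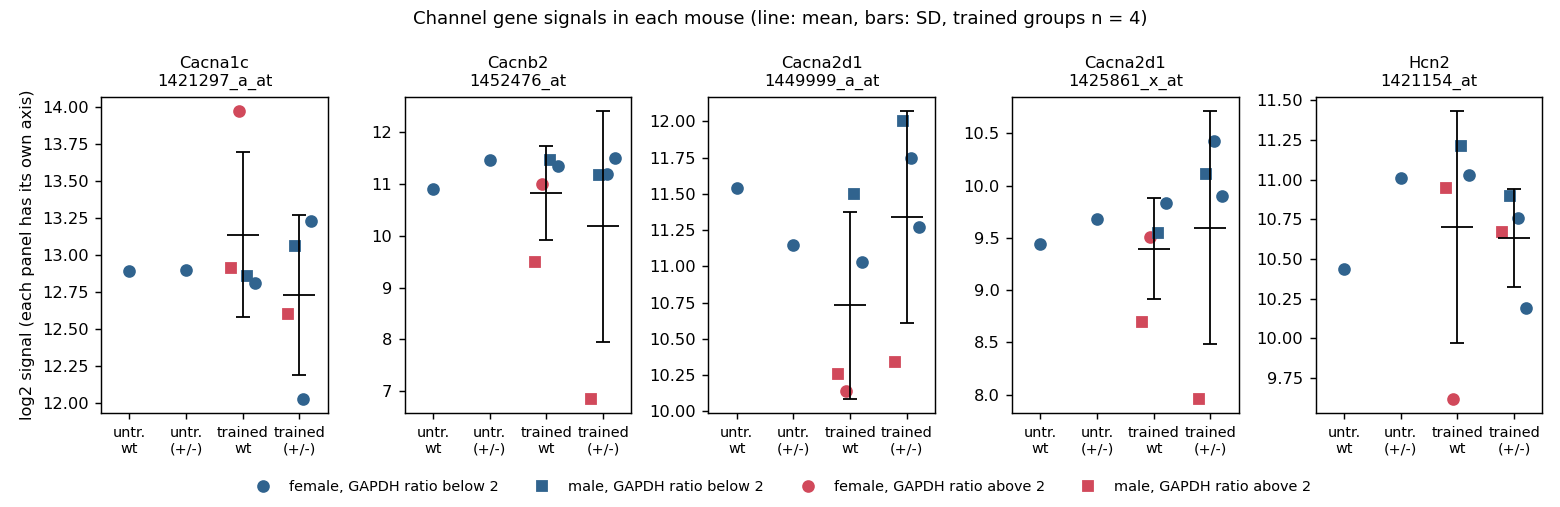
Log2 signal of the 5 member probe sets in each of the 10 mice, by group (wt, wildtype; (+/-), plakoglobin (+/-); untr., untrained). Each point is 1 mouse, squares are males, red marks the 3 arrays with a GAPDH ratio above 2, and lines and bars are the mean and SD of the trained groups (n = 4); each panel has its own axis. The lowest Cacnb2 and Cacna2d1 points and the highest Cacna1c point are red.

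Cacna1c, the pore subunit, had nearly the same signal in both untrained mice, 7569 in wildtype and 7636 in plakoglobin (+/-). Trained wildtype replicates 1 to 4 read 7703, 16002, 7425 and 7193, a mean of 9581 ± 4286 (SD, n = 4). The trained plakoglobin (+/-) replicates read 6221, 8514, 4168 and 9586, a mean of 7122 ± 2418 (SD, n = 4). Of these, 3 of the wildtype mice sat close together near the untrained level and replicate 2, the array with the highest GAPDH ratio, stood far above them, while the plakoglobin (+/-) mice spread to both sides. By group mean the order was trained wildtype, untrained plakoglobin (+/-), untrained wildtype and trained plakoglobin (+/-). The trained groups were thus the ends of that order, and their ranges, 7193 to 16002 and 4168 to 9586, overlapped.

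Cacnb2, the inner subunit, varied most. The trained plakoglobin (+/-) replicates read 116, 2326, 2345 and 2917, and the wildtype replicates 721, 2060, 2821 and 2618. Their means were 1926 ± 1238 and 2055 ± 946 (SD, n = 4 each). The untrained mice read 1906 (wildtype) and 2844 (plakoglobin (+/-)), inside the range of the trained mice. The pair of males with raised GAPDH ratios had the lowest signals of all, and the value of 116 lay just above the floor. Both signals lay below the lowest of the other 8 mice, as did those of 11.3% of the 13576 probe sets tested.

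Over the 8 trained mice the SD of the log2 signal of Cacnb2 was 1.61, and 99.4% of tested probe sets had a smaller one. Over the 5 trained mice with low GAPDH ratios it was 0.15, and 12% had a smaller one. Outside the 3 arrays, then, Cacnb2 was among the steadier signals, between 1906 and 2917 in 7 mice of both genotypes, trained or not. The part of RNA quality in the low values was not tested. In ventricular RNA of this kind, fewer cells of a type and less RNA per cell cannot be told apart.

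Cacna2d1, the outer subunit, was read more brightly by probe set 1449999_a_at. Its signals were 1226, 1129, 2891 and 2086 in trained wildtype replicates 1 to 4 (1833 ± 826, SD, n = 4). They were 1296, 4108, 3436 and 2464 in the trained plakoglobin (+/-) replicates (2826 ± 1223, SD, n = 4), and 2973 and 2270 in the untrained wildtype and plakoglobin (+/-) mice. The groups overlapped, but the 3 arrays of high GAPDH ratio did not overlap with the other 7: they read 1129 to 1296 against 2086 to 4108. Of all probe sets tested, 5.89% were likewise lower on all 3 than on the other 7, and 4.26% were higher.

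The dimmer probe set of Cacna2d1, 1425861_x_at, read 248 and 416 in the pair of males with raised ratios. The other 8 mice read 696 to 1376, among them trained wildtype replicate 2 at 729. Its suffix marks a probe set of which some probes can match other transcripts. Between the probe sets of Cacna2d1 the log2 signals had a Pearson r of 0.73 and a Spearman rho of 0.65 over 10 mice, and a Pearson r of 0.45 over the 7 arrays of low ratio. Both put the pair of males low, and they differed over trained wildtype replicate 2.

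Hcn2, the pacemaker channel, read 1981, 786, 2367 and 2089 in trained wildtype replicates 1 to 4 (1806 ± 699, SD, n = 4). The trained plakoglobin (+/-) replicates read 1625, 1917, 1740 and 1172 (1613 ± 318, SD, n = 4), and the untrained mice 1390 (wildtype) and 2057 (plakoglobin (+/-)). The pair of males that were low for Cacnb2 were not low here. Instead trained wildtype replicate 2, the mouse with the highest Cacna1c signal, had the lowest Hcn2 signal. By group mean the order was untrained plakoglobin (+/-), trained wildtype, trained plakoglobin (+/-) and untrained wildtype. The ranges of trained wildtype, 786 to 2367, and trained plakoglobin (+/-) mice, 1172 to 1917, overlapped. Both untrained values lay inside the trained wildtype range.

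**Figure D2:**
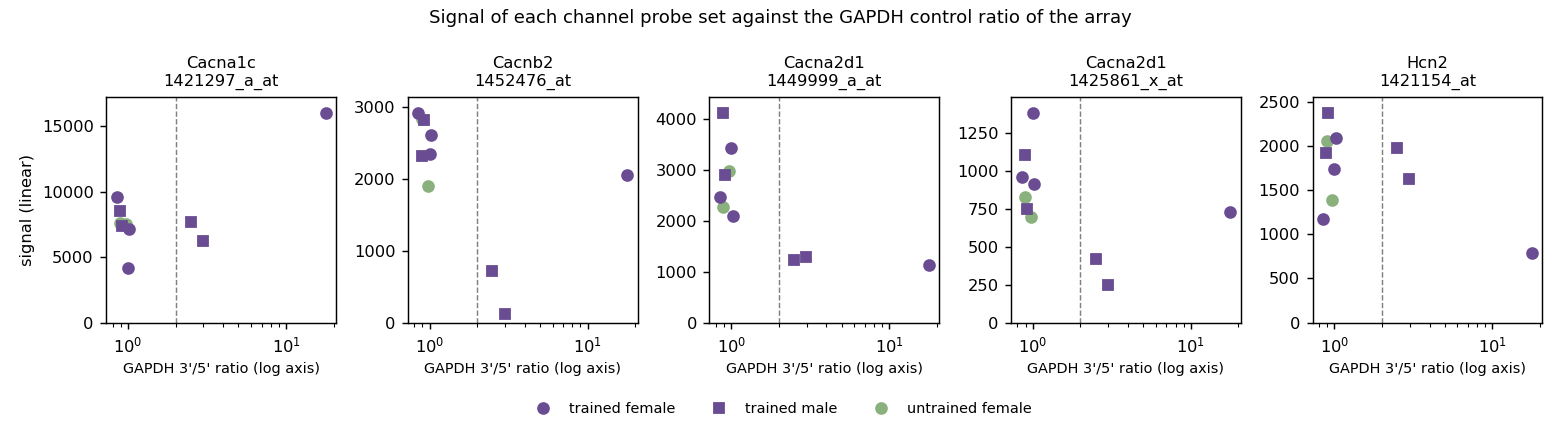
Linear signal of each member probe set (vertical axis) against the 3' to 5' GAPDH control ratio of the same array (horizontal log axis), 1 point per mouse; squares are males, and the dashed line is a ratio of 2. Cacna2d1 (1449999_a_at) read 1129 to 1296 on the 3 arrays right of the line and 2086 to 4108 left of it, while Cacna1c was highest and Hcn2 lowest on the array with a ratio of 17.8.

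The first comparison asked whether the channel genes differed by genotype in trained mice. None did by the test used. Cacna1c was lower in plakoglobin (+/-) mice by a log2 difference of -0.41 (SE 0.33, 95% interval -1.15 to 0.33), a ratio of 0.753. Cacna2d1 was higher, by 0.61 with the brighter probe set (SE 0.42, -0.33 to 1.55), a ratio of 1.52, and by 0.20 with the other (SE 0.51, -0.94 to 1.34). Cacnb2 had -0.64 (SE 0.83, -2.50 to 1.21) and Hcn2 -0.07 (SE 0.32, -0.78 to 0.64).

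With limma 0 of 5 member probe sets passed an adjusted p of 0.05, as did 0% of all 13576 probe sets. At an unadjusted p under 0.05 there were 0 of 5 members, against 2.01% of all probe sets. The members' unadjusted p lay between 0.178 and 0.832, and every adjusted p was 1. An exact permutation test over 70 labelings (two-sided, n = 4 against 4, smallest possible p 0.0286) gave 0.257 for the brighter Cacna2d1 probe set, 0.4 for Cacna1c, 0.771 for Cacnb2 and 0.886 for Hcn2, with no adjustment. The groups overlapped at all 5 member probe sets, and failed to overlap at 0.803% (higher in plakoglobin (+/-)) and 0.796% (lower) of all probe sets.

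Without the 3 arrays of high GAPDH ratio, 2 wildtype and 3 plakoglobin (+/-) mice remained. The Cacna1c difference was then -0.02 (SE 0.31), and that of Cacnb2 was -0.12 (SE 0.23). Leaving out only trained plakoglobin (+/-) replicate 1 turned Cacnb2 to 0.39, and leaving out only trained plakoglobin (+/-) replicate 3 brought Cacna1c to -0.10. The brighter Cacna2d1 probe set differed by 0.49 without the 3 arrays (SE 0.23, -0.02 to 1.0, unadjusted p = 0.0565, adjusted p = 0.775 with limma). Hcn2 differed by -0.44 (SE 0.28, -1.06 to 0.17) and the dimmer Cacna2d1 probe set by 0.43 (SE 0.40, -0.46 to 1.32). All 3 intervals took in 0. With all 8 mice and the log2 GAPDH ratio as a covariate instead, the brighter Cacna2d1 probe set differed by 0.24 (SE 0.33, -0.50 to 0.97), the dimmer by -0.09 (SE 0.50), Cacna1c by -0.20 (SE 0.32), Hcn2 by -0.36 (SE 0.24) and Cacnb2 by -1.24 (SE 0.75, -2.94 to 0.45). For Cacnb2 the covariate cannot follow the low pair of males, since the array with the largest ratio, 17.8, had a signal of 2060.

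The second comparison set the 8 trained mice against the 2 untrained mice, with terms for genotype and sex. None of the channel genes passed. Over all probe sets 0.626% did, a share too small for 5 probe sets to be told apart from it. Cacna1c differed by 0.12 (SE 0.39, -0.74 to 0.97), trained minus untrained, and Hcn2 by -0.32 (SE 0.39, -1.17 to 0.53). Cacnb2 differed by 0.08 (SE 0.98, -2.07 to 2.24). The probe sets of Cacna2d1 went opposite ways, -0.30 (SE 0.51) for the brighter and 0.35 (SE 0.59) for the other.

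The members' adjusted p by limma lay at 0.901 or above. At an unadjusted p under 0.05 there were 0 of 5, against 8.68% of all probe sets, and an exact permutation test (45 labelings, smallest possible p 0.0444) passed for 0 of 5. Trained and untrained mice overlapped at all 5 member probe sets. Over all probe sets, 4.63% were wholly higher and 4.61% wholly lower in trained mice. With shares this small, overlap at all 5 does not set the members apart.

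Among females only, 4 trained against 2 untrained, Cacnb2 differed by 0.08 with a narrower interval, -0.47 to 0.63, in a comparison that leaves out both males of low Cacnb2 signal. Without the 3 arrays of high ratio it was 0.15 (-0.40 to 0.71), that of the brighter Cacna2d1 probe set -0.03 (-0.62 to 0.55), that of the dimmer 0.43 (-0.49 to 1.34), Hcn2 -0.04 (-0.74 to 0.66) and Cacna1c -0.20 (-0.83 to 0.43). The values for Cacna2d1 depended on which untrained mouse was used: the brighter probe set had 0.20 without the untrained wildtype mouse and -0.80 without the untrained plakoglobin (+/-) mouse. Cacnb2 likewise had -0.53 and 0.69, and Hcn2 -0.64 and -0.00. The summed signals of some marker lists also differed between trained and untrained mice without overlap, and their part in the training values was not tested. All 4 ventricular myocyte markers summed to 896042 to 1000034 in untrained and 694236 to 876492 in trained mice, and all 4 leukocyte markers to 16830 to 20020 and 10439 to 16162. The 8 markers of neurons and autonomic nerve summed to 8617 to 10072 in untrained and 10260 to 15216 in trained mice. The sums of the other lists overlapped. Those of the 5 heart muscle markers were 821103 to 966764 in untrained and 678245 to 887581 in trained mice. Of all single probe sets, 4.63% were wholly higher and 4.61% wholly lower in trained mice.

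The untrained mice also allow the genotype difference to be set against training. The genotype by training term, which assumes that the single untrained mice vary like the others, was 1.0 (SE 0.94) for the brighter Cacna2d1 probe set, -1.22 (SE 1.87) for Cacnb2, -0.64 (SE 0.72) for Hcn2, -0.42 (SE 0.75) for Cacna1c and -0.04 (SE 1.12) for the dimmer Cacna2d1 probe set. It was, without the 3 arrays, 0.88 (SE 0.42), -0.70 (SE 0.41), -1.01 (SE 0.51), -0.03 (SE 0.57) and 0.19 (SE 0.75) in the same order. Leaving out only trained plakoglobin (+/-) replicate 1 brought Cacnb2 to -0.19, and leaving out only replicate 3 of that group brought Cacna1c to -0.11. By limma 0 of 5 members and 0% of all probe sets passed. At an unadjusted p under 0.05 there were 0 of 5 and 3.2%.

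The third comparison set trained males against trained females, 4 of each. Cacnb2 was lower in males by -1.52 (SE 0.83, -3.38 to 0.34), with a mean signal of 1496 ± 1285 in males and 2485 ± 367 in females (SD, n = 4 each). The dimmer Cacna2d1 probe set had -0.84 (SE 0.51) and Hcn2 0.53 (SE 0.32, -0.18 to 1.24). Hcn2 read 1973 ± 305 in males and 1447 ± 580 in females (SD, n = 4 each). Cacna1c had -0.15 (SE 0.33) and the brighter Cacna2d1 probe set -0.02 (SE 0.42).

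No member passed by sex (lowest adjusted p 0.61 with limma), and 0.0516% of all probe sets did (0.0442% higher in males and 0.00737% lower). Unadjusted p values were under 0.05 for 0 of 5 members and 8.82% of all probe sets, and the members' exact permutation p values were at least 0.2. Males and females overlapped at all 5 member probe sets, and did not at 2.98% (higher in males) and 2.91% (lower) of all probe sets. The 2 lowest Cacnb2 signals were those of the males with raised GAPDH ratios. Without the 3 arrays of high ratio it was -0.05 (SE 0.23, -0.56 to 0.45), and that of the dimmer Cacna2d1 probe set -0.15 (SE 0.40). Hcn2 then had 0.32 (SE 0.28) and Cacna1c 0.27 (SE 0.31). With all 8 mice and the log2 GAPDH ratio as a covariate, Cacnb2 had -1.71 (SE 0.70, unadjusted p = 0.0375, adjusted p = 0.419 with limma). The covariate is largest on a female array, of ratio 17.8, whose Cacnb2 signal was 2060. The low males, at 116 and 721, had ratios of 2.98 and 2.5, so a straight line in the covariate cannot follow their low signals. Leaving out only trained plakoglobin (+/-) replicate 1 brought Cacnb2 to -0.49 and the dimmer Cacna2d1 probe set to -0.35, and leaving out only trained wildtype replicate 2 brought Hcn2 to 0.20. The brighter Cacna2d1 probe set had 0.49 without the 3 arrays (SE 0.23, unadjusted p = 0.0589, adjusted p = 0.582 with limma). The genotype by sex term passed for 0 of 5 members and 0% of all probe sets, with members between -1.63 (SE 1.68) for Cacnb2 and 0.71 (SE 0.67) for Cacna1c, and unadjusted p values under 0.05 for 0 of 5 and 2.66%. These terms without the 3 arrays were -0.28 (SE 0.47) for Cacnb2 and 0.38 (SE 0.69) for Cacna1c. That fit holds a single wildtype male, a single wildtype female and a single plakoglobin (+/-) male. Its SEs therefore lean on variance shared across probe sets.

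**Figure D3:**
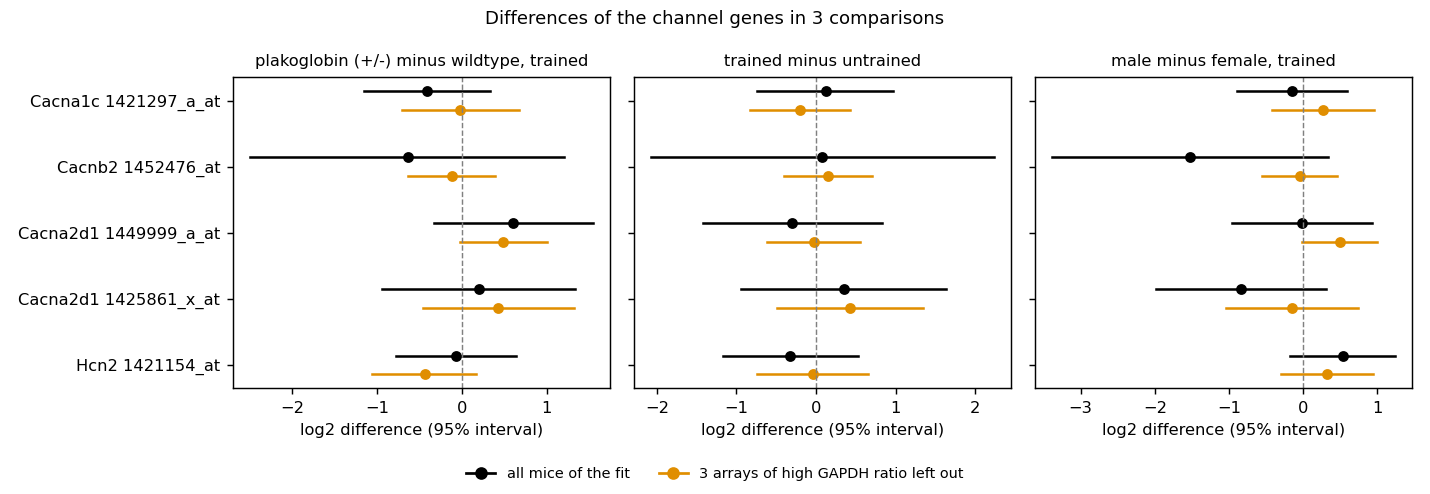
Log2 differences of the 5 member probe sets by genotype, training and sex, from limma. Points are estimates and lines their 95% intervals, in black over all mice of each fit and in orange without the 3 arrays of high GAPDH ratio; every interval includes 0, and for Cacnb2 by genotype the black line spans -2.50 to 1.21 and the orange line -0.63 to 0.39.

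The members did not vary as a group across the 10 mice. Cacnb2 and the dimmer Cacna2d1 probe set had a Pearson r of 0.90 over all 10 mice (Spearman rho 0.67), but 0.01 over the 7 arrays of low GAPDH ratio, so the relation was not seen without the 3 arrays. Cacna1c and Hcn2 had -0.66 (rho -0.42), and -0.23 over the 7 arrays. Cacna1c and Cacnb2, the pore and its inner partner, had 0.20 (rho 0.14), and 0.27 over the 7. These values describe mice that fall into 4 groups and differ in array quality, and carry no p.

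Among the other 8364 tested genes, those whose log2 signal followed a member most closely over the 10 mice were as follows. For Cacna1c they were Usp21 (Pearson r 0.93, rho 0.89), Mul1 (0.91, 0.56) and Calcrl (0.91, 0.50). For the brighter Cacna2d1 probe set they were Tnrc6b (0.95, 0.92), Fxr2 (0.94, 0.95) and Opa1 (0.94, 0.93), and for Hcn2 they were Hrh3 (0.95, 0.83), Nckap5l (0.94, 0.90) and Kazald1 (0.93, 0.88). For Cacnb2 they were Bcl6 (0.97, 0.77), Arap3 (0.96, 0.75) and Pecam1 (0.96, 0.68), the last a marker of endothelium. Over the 7 arrays of low ratio the r of Pecam1 with Cacnb2 was -0.04, and that of Bcl6 0.68. Arap3 had 0.55 with Cacnb2. With Cacna2d1, Tnrc6b had 0.93, Fxr2 0.75 and Opa1 0.61, and with Hcn2, Hrh3 had 0.91, Nckap5l 0.84 and Kazald1 0.86. With Cacna1c, Usp21 had 0.85, Mul1 0.88 and Calcrl 0.84. The 7 arrays are part of the 10 used to pick these genes, so their values are no independent check.

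The 5 endothelial markers were Pecam1, Cdh5, Tek, Kdr and Flt1. Their summed signal was 19569 to 20069 on the 3 arrays of high ratio and 16948 to 23463 on the other 7. Such a sum can hide single markers: Pecam1 ranged from 719 to 4288 over all mice, with a median of 3556. Of the 3 arrays, only those of the pair of males were low for Cacnb2. Whether endothelial content bears on the low Cacnb2 signals was not tested. The 5 heart muscle markers, led by Tnnt2 and Pln, summed to 678245 to 818439 on the 3 arrays and 717539 to 966764 on the others. All 6 smooth muscle markers, from cells that also use Cacna1c, summed to 32664 to 58602 and 26852 to 64409. The 8 markers of neurons and autonomic nerve, which use several of these channels, summed to 10260 to 14530 and 8617 to 15216. The 6 markers of the conduction system and node, where pacemaker channels are most abundant, summed to 1841 to 2115 and 1492 to 3336. In each of these lists the ranges on the 3 arrays and the other 7 overlapped. Of these markers, all 5 of endothelium and all 5 of heart muscle were bright enough to test, as were 4 of smooth muscle, 6 of neurons and 1 of the conduction system, and none of those tested passed by genotype, training or sex.

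Other genes of the same channels and of their control were taken as 6 lists with 77 genes, of which 59 were on the array and 31 were bright enough to test. None passed in any of the 3 comparisons by limma over all mice. At an unadjusted p under 0.05 there were 0 of 31 by genotype, 3 by training and 4 by sex, where the shares over all probe sets were 2.01%, 8.68% and 8.82%. Without the 3 arrays of high GAPDH ratio, an alternative chosen after seeing the data, the counts were 2, 5 and 4 of 31, against 6.54%, 12.9% and 8.91% of all probe sets, and 1 gene (Irx3) passed, by training. The values below are over all mice unless the 3 arrays are named.

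Among pore subunits 3 of 8 on the array were tested. Cacna1d, the other L-type pore of the sinus node and atrium, differed by -0.02 (SE 0.32) by genotype and 0.12 (SE 0.41) by training. Cacna1f, the L-type pore of the retina, had 0.44 (SE 0.25) by training, and Cacna1a, of the P/Q type of neurons, 0.43 (SE 0.43). The median was -0.02 by genotype and 0.43 by training, beside 0.01 and 0.00 over all tested genes. The T-type pores were not tested for low signal: Cacna1g read 211 to 1275 and Cacna1h 70.5 to 773. The pore of skeletal muscle, Cacna1s, read 66.5 to 905.

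Of the other auxiliary subunits only Cacnb1, the beta subunit of skeletal muscle that the heart also holds, was bright enough, 1 of 12 on the array. It read 2064 ± 708 in trained mice (SD, n = 8) and 1231 ± 206 in untrained mice (SD, n = 2), with no overlap between them, as for the 4.63% of all probe sets that were wholly higher in trained mice. Its log2 difference of 0.62 (SE 0.33) did not pass (limma, adjusted p = 0.688), and was 0.62 without the 3 arrays too. By genotype it had 0.43 (SE 0.26) and by sex 0.16 (SE 0.26). Of the pacemaker channel's relatives, Hcn3 read 96 to 432 and was not tested. Cav3, the caveolin of muscle that binds channels in membrane pits, had 0.41 (SE 0.26) by training and 0.13 (SE 0.21) by genotype, the latter -0.22 without the 3 arrays.

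Of the calcium channel regulators, 8 were tested. Among these the anchor protein Akap7, which holds protein kinase A near the channel, had the largest difference by training, 1.21 (SE 0.51, adjusted p = 0.514 with limma), and by genotype, 0.49 (SE 0.29). It read 1058 ± 271 in trained mice (SD, n = 8) and 501.3 ± 357 in untrained mice (SD, n = 2), which overlapped. Akap12, another anchor, had -0.60 (SE 0.28) by training and 0.72 (SE 0.25, adjusted p = 0.509) by sex, higher in every trained male than in any trained female, as were 2.98% of all probe sets. Ahnak, a large protein that binds the beta subunit, had -0.73 (SE 0.28) by sex, which was -0.12 (SE 0.16) without the 3 arrays, and Camk2d, the main calmodulin-dependent kinase of heart muscle, 0.45 (SE 0.42) by genotype. The list's median was 0.18 by genotype, -0.11 by training and 0.17 by sex, beside 0.01, 0.00 and 0.03 over all tested genes.

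Cyclic AMP opens pacemaker channels and, through protein kinase A, raises the calcium current; 9 genes of that path were tested. Adcy6, a main adenylyl cyclase of heart muscle, had 0.59 (SE 0.22, adjusted p = 0.43 with limma) by training. Pde3a, which breaks cyclic AMP down, had 0.84 (SE 1.02) by genotype, -0.74 (SE 1.18) by training and -1.11 (SE 1.02) by sex, with signals from 128 to 3192. Its sex difference without the 3 arrays was 0.67 (SE 0.25), of opposite sign. Gnai2, an inhibitory G protein subunit, had -0.37 (SE 0.21) by genotype, and the kinase's regulatory subunit Prkar1a -0.76 (SE 0.43) by sex, which turned to 0.25 without the 3 arrays. The list's median was -0.05, 0.16 and -0.27 for genotype, training and sex.

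Among 9 tested transcription factors of conduction and pacemaker tissue, Irx3, which patterns the ventricular conduction system, came nearest to the threshold. It read 3017 ± 805 in trained mice (SD, n = 8) and 6322 ± 792 in untrained mice (SD, n = 2), with no overlap, as for the 4.61% of all probe sets that were wholly lower in trained mice. Its log2 difference was -1.30 (SE 0.28, adjusted p = 0.0904 with limma), and -1.19 without the 3 arrays (SE 0.21, adjusted p = 0.0149), where 1.66% of all probe sets passed. Its relative Irx5 had -0.31 (SE 0.37) by genotype, and -0.67 (SE 0.35) without the 3 arrays. Tbx3, which maintains nodal identity, had 0.29 (SE 0.40) by genotype, -0.58 (SE 0.46) by training and 0.59 (SE 0.40) by sex, and Hand2 had -0.60 (SE 0.61) by sex, which turned to 0.59 without the 3 arrays. The list's median was 0.01, -0.09 and 0.03.

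**Figure D4:**
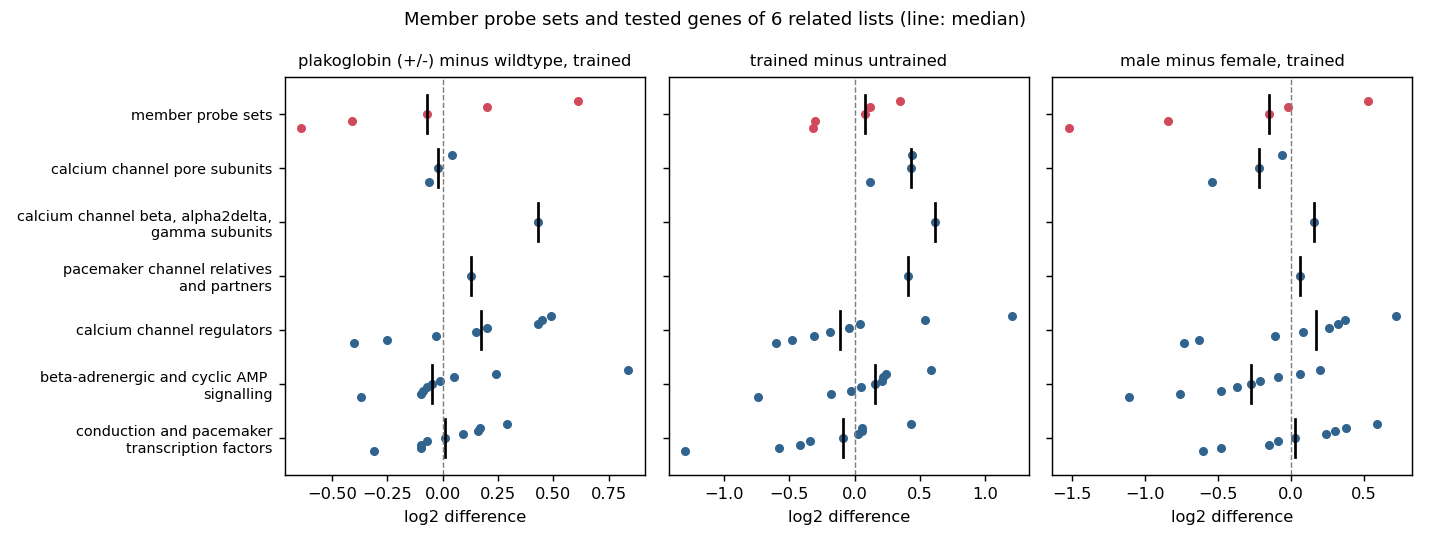
Log2 differences of the 5 member probe sets (red) and of the 31 tested genes of 6 related lists (blue), 1 point per probe set or gene, for genotype, training and sex; black lines are medians. The points lie on both sides of 0 among the members, the regulators, the cyclic AMP genes and the transcription factors. Pore subunits were all above 0 by training and all below it by sex. The auxiliary subunit and pacemaker partner lists hold 1 tested gene each. None passed the test over all mice.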

How the data were processed

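The authors computed the deposited intensity values with MAS5 version 5.0, per the submitters' processing notes; they are on a linear scale, and equal trimmed means (2501.3 to 2501.6, 2% trimmed at each end) show that arrays had been scaled alike. Genome build and detection calls are not given in the sources used here. Precision is limited by the number of arrays.

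Values under 104 (10th percentile) were set to 104 before taking log2. Leaving aside 64 control probe sets, 13576 probe sets above the 40th percentile of mean log2 signal went into limma 3.58.1 (R 4.3.3; lmFit, eBayes with trend; two-sided; Benjamini-Hochberg over all tested). Genotype and sex were fitted together over 8 trained mice, training over 10 mice with both as terms, and each interaction in a further fit. The method was tested on simulated data. For genes outside the members, the brightest probe set with a single symbol was used (20393 had 1, 691 several, 1606 none).

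Members, lists and tests were chosen with earlier results of these data known. The text names all member probe sets, list genes past the threshold or among the 2 largest changes of each list, and the 3 genes most correlated with each member. Jup, markers, Cacna1d and untested channel genes are named besides. Replicate numbers follow record order and pair nothing. Alternatives covered the floor, filter, scaling, trend, model terms, the 3 arrays of high GAPDH ratio and each mouse left out.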

Additional observations from a re-analysis of the deposited data

Results flagged for a closer look

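Among the 10 sets of 4 trained mice examined (5 probe sets in 2 genotypes), 3 held a mouse that stood apart by Dixon's criterion at the 95% level, on log2 signals. Chance sets apart about 1 group in 20. The 10 sets share the same mice and arrays, so they are not independent. The share flagged among all tested probe sets was not computed. The count therefore does not set the channel genes apart from other genes. Cacna1c read 16002 in trained wildtype replicate 2, against 7193 to 7703 in the others. Cacnb2 read 116 in trained plakoglobin (+/-) replicate 1, against 2326 to 2917. Hcn2 read 786 in trained wildtype replicate 2, against 1981 to 2367. All 3 values came from arrays with a GAPDH ratio above 2. Those of Cacna1c and Hcn2 came from the array whose beta-actin ratio, 1.29, was not raised like those of the males.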

How the results depend on the processing

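Member calls stayed at 0 in all 82 combinations of comparison and alternative run. Member differences kept their direction in 67 of 69 values for genotype, 64 of 74 for training and 62 of 64 for sex, leaving single mice out aside. Precision is limited by 10 arrays, 3 of them with high GAPDH ratios, and by 2 untrained mice. No paired analysis was possible because littermates are not identified in the labels. Leaving out single mice in the interaction fits was chosen after seeing the data. The cause of the changes below was not tested.

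By genotype, the dimmer Cacna2d1 probe set turned to -0.09 with the log2 GAPDH ratio as covariate, and Hcn2 to 0.06 with all 10 mice in 1 fit. By training, Cacna1c turned to -0.20 without the 3 arrays, -0.11 with the covariate and -0.27 in plakoglobin (+/-) mice only. The brighter Cacna2d1 probe set turned to 0.10 with the covariate and 0.36 in plakoglobin (+/-) mice only. With no sex term, and in the exact permutation test, the dimmer one had -0.07 and Cacnb2 -0.68, and Cacnb2 had -0.12 in plakoglobin (+/-) mice only. Without the 3 arrays the sex difference was 0.27 for Cacna1c and 0.49 for the brighter Cacna2d1 probe set. The genotype by sex term was then 0.24 for Hcn2, 0.23 for the dimmer and 0.03 for the brighter Cacna2d1 probe set, and the genotype by training term 0.19 for the dimmer one.

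Over all probe sets, the 85 training calls became 225 without the 3 arrays, 1 in wildtype mice only and 2 in plakoglobin (+/-) mice only. The 7 sex calls became 13 after quantile normalization, 15 with a floor at the 25th percentile, 2 with no filter, 11 with a filter at the 60th percentile, 1 without trend, 17 without the 3 arrays, 16 with the covariate, 13 with no genotype term and 15 with all 10 mice. The genotype by training calls went from 0 to 1 without the 3 arrays.

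With each mouse left out in turn, the genotype difference lay between -0.40 and 0.17 for Hcn2, -0.58 and -0.10 for Cacna1c, -0.17 and 0.69 for the dimmer and 0.34 and 1.0 for the brighter Cacna2d1 probe set, and -1.35 and 0.39 for Cacnb2. Training gave -0.64 to -0.00 for Hcn2, 0.20 to 0.47 for the dimmer Cacna2d1 probe set, -0.19 to 0.43 for Cacna1c, -0.80 to 0.20 for the brighter Cacna2d1 probe set, -0.53 to 0.69 for Cacnb2, and 10 to 87 calls over all probe sets, with 10 when the untrained plakoglobin (+/-) mouse was dropped and 34 when its wildtype counterpart was. Sex gave -2.22 to -0.49 for Cacnb2, -1.21 to -0.35 for the dimmer Cacna2d1 probe set, 0.20 to 0.77 for Hcn2, -0.46 to 0.15 for Cacna1c, -0.33 to 0.38 for the brighter Cacna2d1 probe set, and 1 to 12 calls. The genotype by sex term lay between 0.11 and 1.31 for Cacna1c, -1.16 and 0.25 for Hcn2, -1.66 and 0.49 for the dimmer and -1.46 and 0.20 for the brighter Cacna2d1 probe set, and -3.80 and 0.53 for Cacnb2. The genotype by training term lay between -1.93 and -0.19 for Cacnb2, -0.59 and -0.11 for Cacna1c, and -0.96 and -0.40 for Hcn2. It lay between 0.73 and 1.39 for the brighter and -0.41 and 0.45 for the dimmer Cacna2d1 probe set, with 0 to 1 calls. For this term only the 8 trained mice were left out in turn, since it cannot be fitted without either untrained mouse. Its ranges therefore do not show how far it rests on those single mice.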
